A study of Homo sapiens with 24 samples.

Results

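The core pluripotency factors examined here are 10 human genes, POU5F1, NANOG, SOX2, SALL4, PRDM14, DPPA2, DPPA4, L1TD1, ZFP42 and TFCP2L1, taken by name from the 60671 genes of each of the 2 deposited count tables. All 10 were found in both tables and all 10 had enough reads to be tested in every comparison. The data are poly(A) RNA-seq of 24 libraries in 8 groups of 3, made from H1 and H9, both established lines of human embryonic stem cells. The H1 cells, all labelled as treated with doxycycline, were CARHSP1 knockdown primed cells with their nontargeting (NT) primed controls, ZNF8 knockdown naive cells with NT naive controls, and ZIC2 knockdown cells at day 2 of ectoderm differentiation with NT day 2 ectoderm controls. The H9 cells, with no treatment or genotype in their labels, were naive and primed. The labels give StemFlex as the maintenance medium for all samples and give neither the knockdown method nor the medium of the naive cells. They do not say whether replicates were separate cultures, so p-values measure the spread between these libraries, which may be technical.

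POU5F1 (OCT4) and SOX2 bind DNA as a pair at composite elements made of an octamer site beside a SOX site, and with NANOG they hold embryonic stem cells in the undifferentiated state. Naive cells correspond to the pre-implantation epiblast and primed cells to a later epiblast. POU5F1 and SOX2 are transcribed in both states, TFCP2L1 and DPPA2 are among the genes used to mark naive cells, and SOX2 is also a factor of early neural ectoderm.

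The stretches upstream of NANOG and SOX2 are shown because these genes moved in opposite directions on ectoderm differentiation and because both carry the octamer core. Windows from RefSeq's promoter table (GRCh38.p14) were searched for 7 of the 10 factors. POU5F1, SALL4 and PRDM14 were not searched, so whether they carry either core was not tested. The 250 bases before each RefSeq gene start were searched on both strands for the octamer core ATGCAAA and the SOX core CATTGT, and capitals mark the matches in the lines that follow, each read 5′ to 3′ on the gene's own strand. The first line is chr12:7789152-7789401 on the plus strand and the second is chr3:181711675-181711924 on the plus strand.
NANOG: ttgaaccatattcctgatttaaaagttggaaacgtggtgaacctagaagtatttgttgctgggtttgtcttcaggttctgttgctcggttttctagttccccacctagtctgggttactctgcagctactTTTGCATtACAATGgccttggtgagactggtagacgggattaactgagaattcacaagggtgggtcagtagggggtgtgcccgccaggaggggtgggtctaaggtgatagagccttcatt
SOX2: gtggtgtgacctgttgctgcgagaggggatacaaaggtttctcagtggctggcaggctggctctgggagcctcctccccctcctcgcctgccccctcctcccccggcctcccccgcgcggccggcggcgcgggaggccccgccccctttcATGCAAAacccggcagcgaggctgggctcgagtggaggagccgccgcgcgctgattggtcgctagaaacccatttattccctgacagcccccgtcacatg

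In the NANOG window the octamer core lay 120 to 114 bases before the gene start and the SOX core 112 to 107 bases before it, both on the other strand. The SOX2 window held the octamer core at 100 to 94 bases before the start. The windows of L1TD1, TFCP2L1, DPPA2, DPPA4 and ZFP42 held neither run of letters. Among 35116 promoter windows of the same length, 3.94% held the octamer core, 9.29% held the SOX core and 0.0997% (35 windows) held both with starts within 15 bases of each other. The GC content was 47.6% in the NANOG window and 68.8% in the SOX2 window. A match is a description of letters, not of binding.

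Library totals ran from 6756704 to 20773963 counts. Levels are given as CPM, counts relative to the library total scaled by edgeR's TMM factors over all 24 libraries, and a change was called at a Benjamini-Hochberg adjusted p below 0.05 in edgeR's quasi-likelihood test over all genes tested. Each knockdown was first checked on its own target. CARHSP1 averaged 19.2 ± 1.63 CPM in CARHSP1 knockdown primed cells and 149 ± 3.89 CPM in NT primed cells (SD, n = 3 each). ZNF8 averaged 16.3 ± 1.26 CPM in ZNF8 knockdown naive cells and 19.8 ± 3.0 CPM in NT naive cells (SD, n = 3 each), a log2 change of -0.32 that missed the threshold (adjusted p = 0.0664 by edgeR). ZIC2 averaged 267 ± 4.42 CPM in ZIC2 knockdown ectoderm and 552 ± 58.4 CPM in NT ectoderm (SD, n = 3 each). The targets were also tested in the other knockdowns. ZNF8 was lower in CARHSP1 knockdown primed cells (log2 change -0.29, adjusted p = 0.0379 by edgeR). CARHSP1 was lower in ZNF8 knockdown (-0.25) and in ZIC2 knockdown (-0.20), and ZIC2 was higher in ZNF8 knockdown (0.80). ZIC2 in CARHSP1 knockdown and ZNF8 in ZIC2 knockdown did not pass the test. In bulk RNA, fewer cells of a type and less RNA per cell cannot be told apart.

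The labelled states were checked against marker lists. The summed level of 16 naive-state genes was 1567 to 1603 CPM in NT naive H1 libraries and 83.3 to 89.4 CPM in NT primed H1 libraries, and in H9 it was 566 to 577 CPM in naive libraries and 54.1 to 64.7 CPM in primed libraries. The naive factor KLF17 averaged 10.7 ± 1.12 CPM in NT naive H1 cells but had only 2 counts over the 3 naive H9 libraries. Of 13 primed-state genes, 10 were lower and 2 higher in naive than in primed cells of each line. Their summed level was 1289 to 1341 CPM in NT naive H1 and 3734 to 3901 CPM in NT primed H1 libraries, and 1854 to 1973 CPM in naive H9 and 4719 to 4868 CPM in primed H9 libraries. In NT ectoderm the summed level of 14 neural ectoderm genes was 1928 to 1985 CPM, with SIX3 at 191 ± 16.7 CPM and PAX6 at 2.23 ± 1.02 CPM (SD, n = 3), while HES5 and RAX had no counts. The lists share some genes. OTX2 was on both the primed-state and the neural ectoderm list, and THY1 on both the primed-state list and the fibroblast list used below.

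POU5F1 and NANOG share sequence with annotated gene copies, and how reads were divided between them was not stated in any source used. The 7 annotated POU5F1 copies held 9.42% to 10.9% of the counts of POU5F1 and its copies in the H1 groups and 5.19% to 5.51% in the H9 groups. The 11 NANOG copies held 16.8% to 18.8% in 5 of the H1 groups, 31.5% in NT ectoderm and 35.0% to 35.4% in H9. The copies of SALL4, DPPA2 and DPPA4 held at most 0.169%. Single copies were tested where their counts allowed. POU5F1P3 fell by 0.36 on the log2 scale in CARHSP1 knockdown and by 0.30 in ZIC2 knockdown, and NANOGP2 fell by 1.62 in CARHSP1 knockdown. In NT ectoderm POU5F1B, POU5F1P3, POU5F1P4, NANOGP1, NANOGP2 and NANOGP8 fell, by 1.89 for POU5F1B and 4.52 for NANOGP8. NANOGP8 rose by 1.06 in naive H9 cells, and NANOGP2 and NANOGP4 fell by 1.13 and 1.12 in NT naive H1 cells. No copy passed the test in ZNF8 knockdown. POU5F1 on chromosome 6 also overlaps PSORS1C3 on the same strand and TCF19 on the other strand. SOX2 on chromosome 3 lies within SOX2-OT on the same strand. L1TD1 overlaps a processed pseudogene on the other strand and a Y_RNA gene on the same strand. DPPA2 overlaps a Metazoa_SRP gene on the other strand. The reads of these factors are uncertain to that extent. DPPA2 and DPPA4 are neighbours on chromosome 3, at chr3:109293788-109316517 and chr3:109326141-109337572 of GRCh38, both on the minus strand.

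Per kilobase of gene length, POU5F1 had the highest level of the 10 in NT primed H1 cells, at 486 ± 28.4 CPM per kb. L1TD1, an RNA-binding protein derived from a LINE-1 element, followed at 258 ± 3.85 CPM per kb, DPPA4 at 198 ± 3.37 CPM per kb and SOX2 at 158 ± 2.55 CPM per kb (SD, n = 3 each). NANOG, at 24.5 ± 0.366 CPM per kb, and DPPA2, at 24.2 ± 0.542 CPM per kb, lay close together near the low end. TFCP2L1 was the lowest at 1.82 ± 0.301 CPM per kb.

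The factors differed widely in how far they moved over the 8 groups. The highest group mean was 35.3 times the lowest for NANOG, 27.5 times for TFCP2L1 and 6.26 times for PRDM14. The same ratio was 5.76 for DPPA2, 3.69 for POU5F1, 3.35 for SOX2, 2.82 for L1TD1 and 2.16 for SALL4. DPPA4 at 1.80 and ZFP42 at 1.41 moved least. Both ectoderm groups were the lowest groups for POU5F1, NANOG, PRDM14, DPPA4 and TFCP2L1 and the highest for SOX2. In the order of the 8 group means, neighbours overlapped in their libraries at 6 of 7 steps for POU5F1. They overlapped at 5 of 7 steps for DPPA4 and ZFP42, and at 2 of 7 for SALL4 and PRDM14.

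**Figure D1:**
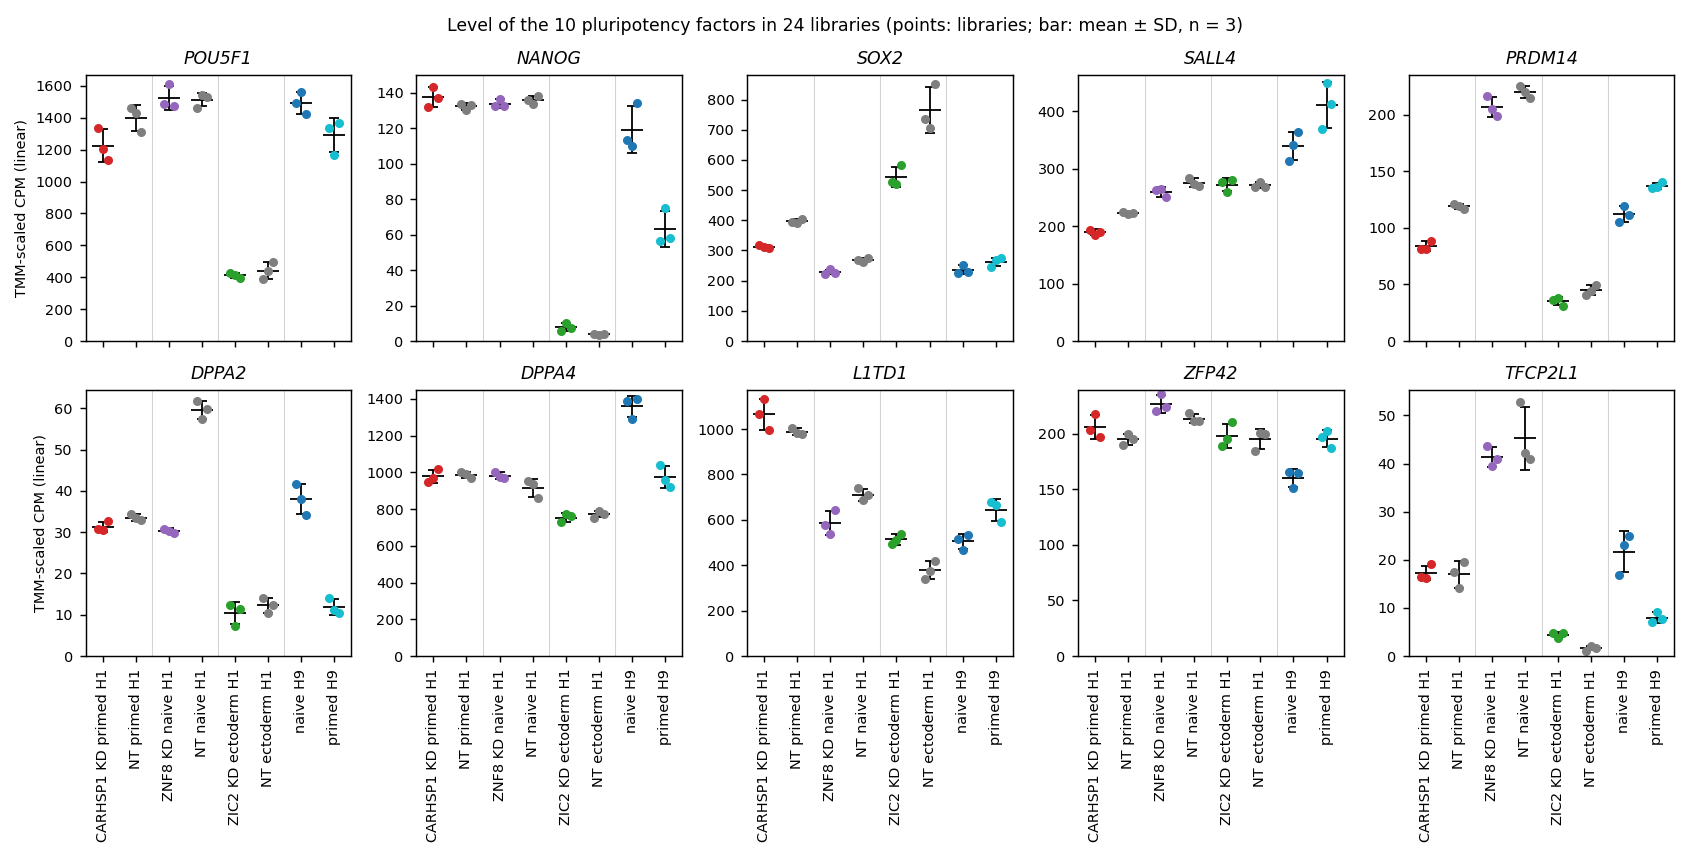
Level of each factor (TMM-scaled CPM, linear axis from 0) in the 24 libraries, by group, with points for libraries and bars for the mean ± SD (n = 3). NANOG, POU5F1, PRDM14 and TFCP2L1 were lowest in both ectoderm groups, where SOX2 was highest, and ZFP42 stayed within a 1.41-fold range of group means.

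As a description over the 24 libraries, which fall into separate states, the log2 level of POU5F1 went with that of NANOG (Pearson r = 0.961) and against that of SOX2 (r = -0.886). Among 11798 genes averaging at least 5 CPM, the 3 most like POU5F1 were its copy POU5F1B (r = 0.985), MTND2P28 (r = 0.968) and LAMC3 (r = 0.964). The 3 most like NANOG were MT-ND3 (r = 0.969), ENSG00000254339 (r = 0.967) and MT-CO2 (r = 0.962). The 3 most like SOX2 were ASPH (r = 0.971), SEZ6 (r = 0.967) and ZIC1 (r = 0.963). The points share the states, the lines and the depth of their libraries.

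Day 2 ectoderm differentiation of NT H1 cells lowered 7 of the 10 factors and raised SOX2 and SALL4 relative to NT primed cells. NANOG had 4.15, 3.61 and 3.91 CPM in NT ectoderm, against 134, 130 and 133 CPM in NT primed cells, a 34.2-fold lower level (log2 change -5.10 ± 0.11 SE, adjusted p = 1.25e-25 by edgeR). TFCP2L1, a naive-state transcription factor, had 1.14, 2.05 and 1.75 CPM in NT ectoderm, against 17.4, 14.04 and 19.6 CPM in NT primed cells (log2 change -3.33 ± 0.23 SE, adjusted p = 4.31e-13). For both genes the groups were far apart, with no overlap, although the NT ectoderm values rest on 113 counts of NANOG and 50 of TFCP2L1 in all.

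POU5F1 fell less far than NANOG on the log2 scale. It had 387, 440 and 497 CPM in NT ectoderm, against 1463, 1432 and 1309 CPM in NT primed cells (log2 change -1.67 ± 0.06 SE, adjusted p = 2.75e-19 by edgeR). PRDM14, a PR-domain regulator of pluripotency and of germ cells, had 40.9, 44.6 and 49.2 CPM in NT ectoderm, against 121, 119 and 117 CPM in NT primed cells, a log2 change of -1.40 ± 0.08 SE. Every NT ectoderm library was below every NT primed library for both genes.

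DPPA2 and DPPA4, SAP-domain proteins that act as a pair at chromatin in mouse embryonic stem cells, both fell, but DPPA2 by more. DPPA2 averaged 12.3 ± 1.74 CPM in NT ectoderm and 33.5 ± 0.749 CPM in NT primed cells (log2 change -1.47). DPPA4 averaged 773 ± 17.5 CPM in NT ectoderm and 988 ± 16.8 CPM in NT primed cells (SD, n = 3 each; log2 change -0.36). L1TD1 averaged 378 ± 40.1 CPM in NT ectoderm and 988 ± 14.8 CPM in NT primed cells (SD, n = 3 each; log2 change -1.39). The adjusted p by edgeR was 6.19e-11 for DPPA2, 3.14e-07 for DPPA4 and 2.80e-18 for L1TD1.

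SOX2 had 737, 707 and 852 CPM in NT ectoderm, against 394, 392 and 404 CPM in NT primed cells, a 1.93-fold higher level (log2 change 0.95 ± 0.06 SE, adjusted p = 2.55e-14 by edgeR). SALL4, a zinc-finger partner of POU5F1 that is also used in early embryonic tissues, rose by a log2 change of 0.28 ± 0.05 SE (adjusted p = 5.37e-05). ZFP42 (REX1), a zinc-finger protein known as a marker of undifferentiated cells, averaged 195 ± 9.03 CPM in NT ectoderm and 195 ± 4.97 CPM in NT primed cells (SD, n = 3 each). Its log2 difference was 0.00 with a 95% interval of -0.11 to 0.11. With trends in GC content and gene length removed, ZFP42 was lower in NT ectoderm, at a log2 change of -0.17 (adjusted p = 0.0116).

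The 9 of 10 factors called compare with 62.8% of the 15409 genes tested in this comparison, and their median log2 change was -1.39 beside -0.00152 over all genes tested. Of 16 other pluripotency genes, 4 were higher and 11 lower in NT ectoderm. TDGF1, a co-receptor for NODAL, fell by 7.13 on the log2 scale, while LIN28A, an RNA-binding protein, rose by 1.07. Of 10 neural ectoderm genes tested, 8 rose and 1 fell, with a log2 change of 10.82 for SIX3 and 5.40 for ZIC1. Of fibroblast markers, 5 of 5 tested fell, and their list summed to 192 to 201 CPM in NT ectoderm and 684 to 712 CPM in NT primed libraries. The part of these lists in the factors' changes was not tested.

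ZIC2 is a zinc-finger factor that is expressed in primed cells and in neural ectoderm. In ZIC2 knockdown day 2 ectoderm, NANOG, TFCP2L1 and L1TD1 were higher and SOX2 and PRDM14 lower than in NT ectoderm, while POU5F1, SALL4, DPPA2, DPPA4 and ZFP42 did not pass the test, with log2 differences from -0.25 for DPPA2 to 0.01 for ZFP42. NANOG had 5.93, 10.4 and 7.59 CPM in ZIC2 knockdown ectoderm, against 4.15, 3.61 and 3.91 CPM in NT ectoderm. All 3 ZIC2 knockdown libraries were above all 3 NT libraries, and replicate 2 was the highest. The level was 2.05-fold higher (log2 change 1.04 ± 0.26 SE, adjusted p = 0.00456 by edgeR). Without ZIC2 knockdown replicate 2 the log2 change was 0.80 and missed the threshold (adjusted p = 0.0569). With the counts of its copies added it was 0.78 (adjusted p = 0.0161).

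TFCP2L1 had 4.72, 3.79 and 4.86 CPM in ZIC2 knockdown ectoderm, against 1.14, 2.05 and 1.75 CPM in NT ectoderm. The groups were separate, on 146 counts in ZIC2 knockdown and 50 in NT ectoderm, and the level was 2.62-fold higher (log2 change 1.39 ± 0.35 SE, adjusted p = 0.00456 by edgeR). L1TD1 had 492, 513 and 539 CPM in ZIC2 knockdown ectoderm, against 340, 373 and 420 CPM in NT ectoderm, again without overlap (log2 change 0.44 ± 0.07 SE, adjusted p = 3.87e-05). All of these levels stayed below those of NT primed cells, where NANOG averaged 132 ± 1.97 CPM, TFCP2L1 17.0 ± 2.82 CPM and L1TD1 988 ± 14.8 CPM (SD, n = 3 each).

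SOX2 had 527, 520 and 583 CPM in ZIC2 knockdown ectoderm, against 737, 707 and 852 CPM in NT ectoderm. Every ZIC2 knockdown library was below every NT ectoderm library and above every NT primed library (392 to 404 CPM). The level was 1.42-fold lower (log2 change -0.50 ± 0.07 SE, adjusted p = 6.93e-06 by edgeR). SOX2-OT, the noncoding gene that spans SOX2 on the same strand, was higher by a log2 change of 0.85 ± 0.25 SE (adjusted p = 0.0127), with 11.0 ± 3.85 CPM in ZIC2 knockdown and 6.13 ± 1.19 CPM in NT ectoderm (SD, n = 3 each). PRDM14 had 35.9, 38.4 and 31.2 CPM in ZIC2 knockdown ectoderm, against 40.9, 44.6 and 49.2 CPM in NT ectoderm (log2 change -0.36 ± 0.11 SE, adjusted p = 0.0155). The PRDM14 call was lost without ZIC2 knockdown replicate 3 (adjusted p = 0.0878) or without NT ectoderm replicate 3 (adjusted p = 0.0876).

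POU5F1 had 426, 417 and 396 CPM in ZIC2 knockdown ectoderm, against 387, 440 and 497 CPM in NT ectoderm. The ranges overlapped, and the log2 difference of -0.11 had a 95% interval of -0.25 to 0.03 (adjusted p = 0.284 by edgeR). Without NT ectoderm replicate 1, the lowest of its group, it was -0.18 (adjusted p = 0.0437).

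The 5 of 10 factors called compare with 28.1% of 15013 genes tested, and the median log2 change of the 10 was -0.02 beside -0.01 over all genes. Of 15 other pluripotency genes tested, 6 were higher and 3 lower. The NODAL co-receptor TDGF1 rose by 4.90 on the log2 scale, to 193 ± 17.9 CPM in ZIC2 knockdown ectoderm, against 6.48 ± 1.11 CPM in NT ectoderm (SD, n = 3 each). FOXH1, the DNA-binding partner of the SMAD proteins downstream of NODAL, rose by 0.76, and the surface sialomucin PODXL by 0.67. LIN28A fell by 0.35 on the log2 scale. Of 12 primed-state genes tested, 8 rose and 3 fell. The log2 change was 1.32 for the growth factor FGF2, -0.57 for CD24 and -0.69 for OTX2. The summed level of the 13 listed, ZIC2 itself among them, was lower in ZIC2 knockdown. It was 4053 to 4180 CPM in ZIC2 knockdown libraries and 4563 to 4806 CPM in NT ectoderm libraries. Of 7 naive-state genes tested, 2 rose, KLF5 by 1.70 and TFAP2C by 0.40 on the log2 scale, and none fell. The summed naive-state level was 74.7 to 80.7 CPM in ZIC2 knockdown libraries and 51.25 to 64.6 CPM in NT ectoderm libraries. Of 10 neural ectoderm genes tested, 2 rose and 4 fell. The summed neural ectoderm level was 1647 to 1716 CPM in ZIC2 knockdown libraries and 1928 to 1985 CPM in NT libraries. Among 9 trophoblast and amnion genes the summed level overlapped, at 10.4 to 16.2 CPM in ZIC2 knockdown and 8.72 to 13.3 CPM in NT ectoderm. GATA3 averaged 2.16 ± 0.631 CPM in ZIC2 knockdown, and had no counts in NT ectoderm. Of 4 fibroblast markers tested, 3 rose and none fell, with a log2 change of 1.08 for the collagen gene COL1A1. Their list summed to 297 to 316 CPM in ZIC2 knockdown and 192 to 201 CPM in NT ectoderm, while COL3A1, DCN, LUM and POSTN had no counts in either group. The part of these shifts in the factors' changes was not tested.

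**Figure D2:**
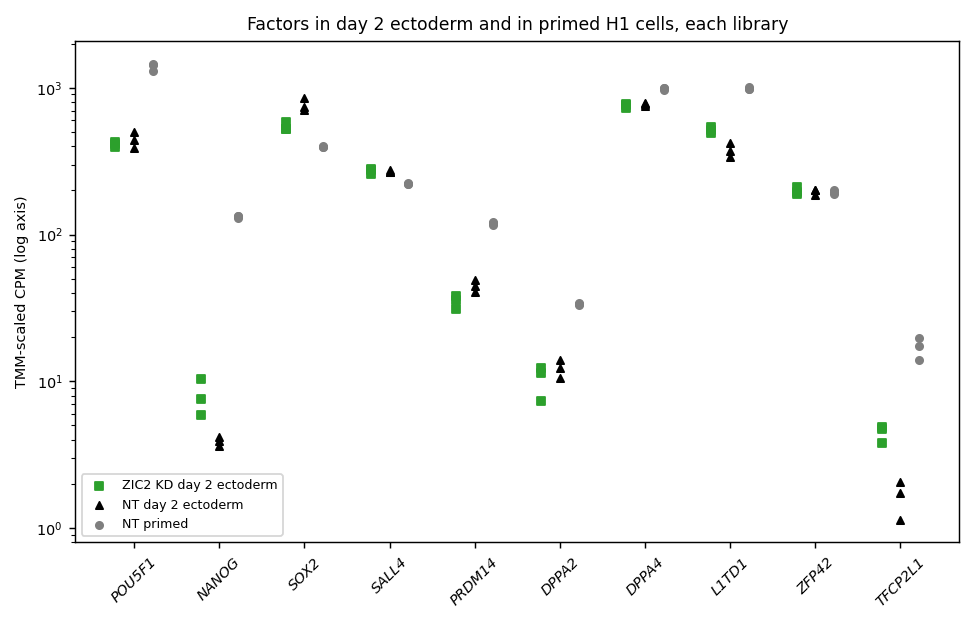
Level of each factor (TMM-scaled CPM, log axis) in every library of ZIC2 knockdown day 2 ectoderm (squares), NT day 2 ectoderm (triangles) and NT primed H1 cells (circles). The NANOG and TFCP2L1 squares lie above the triangles and well below the circles, and the SOX2 squares lie between the triangles and the circles.

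CARHSP1 is a cold-shock domain protein that binds RNA. In CARHSP1 knockdown primed cells, 4 of the 10 factors fell and none rose, in a comparison where 20.2% of 15642 genes tested were called. Over all genes, 3152 were called with all libraries, 2096 without CARHSP1 knockdown replicate 2 and 2045 without NT primed replicate 1. The 4 factors were called in each of these. PRDM14 had 81.1, 81.2 and 88.6 CPM in CARHSP1 knockdown, against 121, 119 and 117 CPM in NT primed cells. The groups were separate and the level was 1.43-fold lower (log2 change -0.51 ± 0.06 SE, adjusted p = 3.61e-08 by edgeR). SOX2 had 319, 313 and 307 CPM in CARHSP1 knockdown, against 394, 392 and 404 CPM in NT primed cells, also without overlap (log2 change -0.35 ± 0.04 SE, adjusted p = 1.84e-07). SALL4 had 194, 185 and 191 CPM in CARHSP1 knockdown, against 225, 221 and 222 CPM in NT primed cells (log2 change -0.24 ± 0.05 SE, adjusted p = 0.000383).

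POU5F1 had 1336, 1206 and 1134 CPM in CARHSP1 knockdown, against 1463, 1432 and 1309 CPM in NT primed cells. The highest CARHSP1 knockdown library exceeded the lowest NT library, so the groups overlapped, although the change was called (log2 change -0.20 ± 0.05 SE, adjusted p = 0.00152 by edgeR). NANOG averaged 137 ± 5.68 CPM in CARHSP1 knockdown and 132 ± 1.97 CPM in NT primed cells (SD, n = 3 each), and the 95% interval of its log2 difference was -0.06 to 0.16. L1TD1 had a log2 difference of 0.10 ± 0.04 SE (adjusted p = 0.0919), which was 0.15 without CARHSP1 knockdown replicate 3 (adjusted p = 0.00512). DPPA2, DPPA4, ZFP42 and TFCP2L1 did not pass the test, with log2 differences from -0.10 for DPPA2 to 0.07 for ZFP42. The DPPA2 groups did not overlap, although its change was not called.

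Of 16 other pluripotency genes, 2 were higher and 6 lower in CARHSP1 knockdown cells. GDF3, a TGF-beta family ligand, fell by 1.37 on the log2 scale, and MYCN, a MYC family factor, fell by 0.42, whereas TDGF1 rose by 0.22. All 10 naive-state genes that were tested fell, out of 16 listed, from a low start. Their summed level was 46.7 to 48.5 CPM in CARHSP1 knockdown libraries and 83.3 to 89.4 CPM in NT primed libraries. Of 5 fibroblast markers tested, 3 fell and none rose, and their list summed to 587 to 635 CPM in CARHSP1 knockdown and 684 to 712 CPM in NT primed libraries. Of 6 neural ectoderm genes tested, 3 rose and none fell. The neural ectoderm list summed to 742 to 812 CPM in CARHSP1 knockdown and 622 to 665 CPM in NT primed libraries. The part of these lists in the factors' changes was not tested. The median log2 change was -1.06 for the naive-state genes, -0.06 for the 10 factors and -0.00217 over all genes tested.

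ZNF8 is a KRAB-type zinc-finger protein. In ZNF8 knockdown naive cells, where the ZNF8 transcript itself missed the threshold, 3 of the 10 factors fell and none rose, in a comparison where 24.2% of 15323 genes tested were called. DPPA2 had 30.9, 30.4 and 29.8 CPM in ZNF8 knockdown, against 61.7, 57.4 and 59.9 CPM in NT naive cells. The 2 groups were tight and far apart, with ZNF8 knockdown cells at 0.500 times the NT level (log2 change -1.0 ± 0.08 SE, adjusted p = 4.38e-12 by edgeR). Its neighbour DPPA4 averaged 983 ± 19.5 CPM in ZNF8 knockdown and 916 ± 50.1 CPM in NT naive cells (SD, n = 3 each), a log2 difference of 0.07 that missed the threshold (adjusted p = 0.241).

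L1TD1 had 578, 536 and 642 CPM in ZNF8 knockdown, against 739, 687 and 708 CPM in NT naive cells (log2 change -0.31 ± 0.05 SE, adjusted p = 1.94e-05 by edgeR). SOX2 had 222, 238 and 226 CPM in ZNF8 knockdown, against 269, 260 and 274 CPM in NT naive cells (log2 change -0.25 ± 0.05 SE, adjusted p = 0.000271). Neither gene's groups overlapped. The same held for SALL4, lower in ZNF8 knockdown, and for DPPA4 and ZFP42, higher there, although none of these was called. The share of all genes without overlap was not counted. POU5F1 averaged 1523 ± 75.6 CPM in ZNF8 knockdown and 1513 ± 42.1 CPM in NT naive cells, and NANOG 134 ± 2.35 CPM in ZNF8 knockdown and 136 ± 2.28 CPM in NT naive cells (SD, n = 3 each). The 95% interval of the log2 difference was -0.10 to 0.07 for POU5F1 and -0.16 to 0.06 for NANOG. SALL4, at a log2 difference of -0.12, missed the threshold (adjusted p = 0.087) and passed it with GC content and length trends removed (adjusted p = 0.0232). PRDM14, at -0.12 (adjusted p = 0.0944), TFCP2L1, at -0.16 (adjusted p = 0.227), and ZFP42, at 0.06 (adjusted p = 0.455), did not pass the test.

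Of 14 naive-state genes tested in this comparison, 11 fell and 1 rose. KLF17 fell by 2.81 on the log2 scale, NLRP7, a maternal-effect gene, by 1.84 and DNMT3L, a cofactor of DNA methyltransferases, by 1.74. The summed naive-state level was 1132 to 1187 CPM in ZNF8 knockdown libraries and 1567 to 1603 CPM in NT naive libraries. Of 7 trophoblast and amnion genes tested, 6 fell and none rose, and their list summed to 37.4 to 43.0 CPM in ZNF8 knockdown and 99.0 to 106 CPM in NT naive libraries. GATA3, a trophoblast factor, averaged 0.331 ± 0.0649 CPM in ZNF8 knockdown and 16.6 ± 1.16 CPM in NT naive cells (SD, n = 3 each). Of fibroblast markers, 3 of 3 tested rose, with log2 changes of 0.69 for COL1A1, 0.40 for COL1A2 and 1.15 for POSTN. Their list summed to 390 to 429 CPM in ZNF8 knockdown and 302 to 312 CPM in NT naive libraries, and COL3A1, DCN and LUM had no counts in ZNF8 knockdown. Of 6 neural ectoderm genes tested, 2 rose and 1 fell. The neural ectoderm list summed to 754 to 837 CPM in ZNF8 knockdown and 578 to 596 CPM in NT naive libraries. Of 16 other pluripotency genes, 1 rose, NODAL, by 0.35 on the log2 scale, and 8 fell, including the DNA methyltransferase DNMT3B by 0.48. The part of these lists in the change of DPPA2 was not tested.

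Differences between the knockdown changes were tested directly. Between CARHSP1 and ZNF8 knockdown, 4 of 10 factors differed, beside 21.1% of 16989 genes tested. The CARHSP1 change minus the ZNF8 change was 0.88 ± 0.12 SE for DPPA2 (adjusted p = 3.57e-07 by edgeR), 0.39 for L1TD1, -0.41 for PRDM14 and -0.20 for POU5F1. The POU5F1 difference (adjusted p = 0.0261) missed the threshold in DESeq2 (adjusted p = 0.0608) and without any of 5 single libraries, with adjusted p of 0.0717 to 0.133.

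Between CARHSP1 and ZIC2 knockdown, 4 of 10 differed, beside 28.2% of 16319 genes tested. The CARHSP1 change minus the ZIC2 change was -1.37 ± 0.30 SE for TFCP2L1, -1.01 ± 0.19 SE for NANOG, -0.33 for L1TD1 and -0.24 for SALL4. Between ZNF8 and ZIC2 knockdown, 5 of 10 differed, beside 16.7% of 16750 genes tested. The ZNF8 change minus the ZIC2 change was -1.52 ± 0.27 SE for TFCP2L1, -1.10 ± 0.19 SE for NANOG, -0.74 for L1TD1, -0.74 for DPPA2 and 0.26 for SOX2. The SOX2 difference (adjusted p = 0.0411 by edgeR) was lost without any of 8 single libraries, with adjusted p of 0.0522 to 0.138.

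SOX2 fell in all 3 knockdowns, by 0.35, 0.25 and 0.50 on the log2 scale for CARHSP1, ZNF8 and ZIC2. Over all genes tested, 1544 of 15642, 1878 of 15323 and 1925 of 15013 were lower in the same order. How many genes were lower in all 3 was not counted, so whether SOX2 stands out was not tested. The NT libraries of the 3 comparisons are separate, but each knockdown was made in another state. State and target therefore cannot be told apart in the differences between knockdowns.

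**Figure D3:**
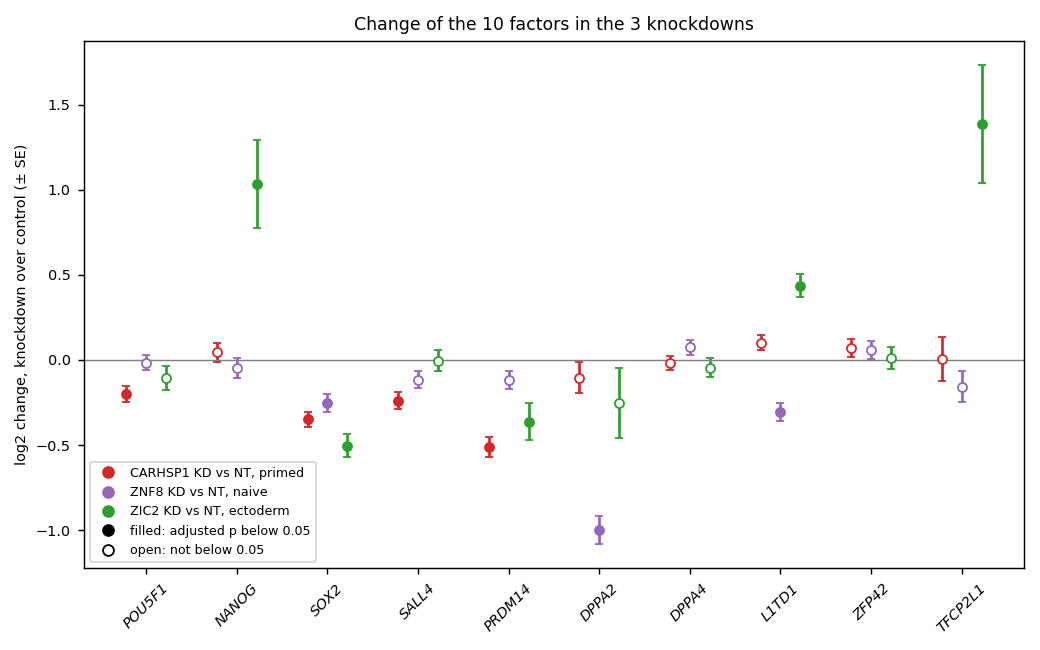
Log2 change of each factor, knockdown over NT, for CARHSP1 in primed, ZNF8 in naive and ZIC2 in day 2 ectoderm H1 cells (points; bars are SE; filled where the adjusted p was below 0.05). SOX2 lies below 0 in all 3, DPPA2 reaches -1.0 in ZNF8 knockdown, and NANOG and TFCP2L1 lie above 1 in ZIC2 knockdown alone.

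Naive cells were compared with primed cells in each line. The NT primed libraries used here also served the ectoderm and CARHSP1 comparisons, and the NT naive libraries the ZNF8 comparison. In H1, 6 factors were higher and 3 lower in naive cells, beside 71.1% of 15874 genes called. In H9, 5 were higher and 4 lower, beside 51.5% of 15761 genes called. The median log2 change of the 10 was 0.12 in H1 and 0.04 in H9.

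TFCP2L1 and DPPA2 rose in naive cells of both lines. TFCP2L1 had 52.8, 42.1 and 40.9 CPM in NT naive H1 cells, against 17.4, 14.04 and 19.6 CPM in NT primed H1 cells (log2 change 1.40 ± 0.11 SE). In H9 it had 16.8, 23.0 and 25.0 CPM in naive cells, against 6.98, 9.24 and 7.74 CPM in primed cells (log2 change 1.46 ± 0.17 SE). Neither line's groups overlapped, and the difference between the lines, H1 change minus H9 change, was -0.05 with a 95% interval of -0.48 to 0.37.

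DPPA2 had 61.7, 57.4 and 59.9 CPM in NT naive H1 cells, against 34.3, 33.4 and 32.9 CPM in NT primed H1 cells (log2 change 0.83 ± 0.09 SE). In H9 it had 41.6, 38.0 and 34.3 CPM in naive cells, against 14.1, 11.3 and 10.4 CPM in primed cells (log2 change 1.67 ± 0.14 SE). Primed H9 libraries were the low group, below every primed H1 library. POU5F1 was higher by log2 changes of 0.11 ± 0.04 SE in H1 (adjusted p = 0.0068 by edgeR) and 0.22 ± 0.08 SE in H9 (adjusted p = 0.0254). With GC content and length trends removed both POU5F1 calls were lost (adjusted p = 0.161 in H1 and 0.0855 in H9). POU5F1 also lost its H1 call without NT primed replicate 3 (adjusted p = 0.126), and its H9 call without primed replicate 2, naive replicate 1 or naive replicate 2 (adjusted p of 0.0652 to 0.119). TCF19, which overlaps POU5F1 on the other strand, rose by 1.76 on the log2 scale in NT naive H1 cells and by 0.57 in naive H9 cells.

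L1TD1 fell in both lines, by 0.47 on the log2 scale in H1 and 0.34 in H9. SOX2 fell in NT naive H1 cells, with 269, 260 and 274 CPM, against 394, 392 and 404 CPM in NT primed H1 cells (log2 change -0.57 ± 0.04 SE, adjusted p = 2.84e-18 by edgeR). In H9 SOX2 had 226, 253 and 228 CPM in naive cells, against 247, 267 and 274 CPM in primed cells, overlapping ranges with a log2 difference of -0.15 (adjusted p = 0.154). With GC content and length trends removed, SOX2 was lower in naive H9 cells at -0.27 (adjusted p = 0.00414).

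The change itself differed between the lines for 7 of the 10 factors, beside 49.9% of 17140 genes tested. Removal of GC content and length trends was not run on this difference. PRDM14 differed most. It had 226, 220 and 215 CPM in NT naive H1 cells, against 121, 119 and 117 CPM in NT primed H1 cells, a rise of 0.89 ± 0.05 SE on the log2 scale. In H9 it had 105, 119 and 112 CPM in naive cells, against 135, 137 and 140 CPM in primed cells, a fall of 0.28 ± 0.09 SE. The difference of the changes was 1.18 ± 0.10 SE (adjusted p = 1.43e-11 by edgeR).

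NANOG had 136, 133 and 138 CPM in NT naive H1 cells, against 134, 130 and 133 CPM in NT primed H1 cells, overlapping ranges with a log2 difference of 0.04 (95% interval -0.07 to 0.15). In H9 it had 113, 110 and 134 CPM in naive cells, against 56.4, 75.0 and 58.0 CPM in primed cells (log2 change 0.93 ± 0.12 SE, adjusted p = 2.02e-06 by edgeR). Primed H9 cells were thus the low group of the 4. The difference of the changes was -0.89 ± 0.13 SE (adjusted p = 1.02e-06), and -0.91 with the counts of the NANOG copies added.

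SALL4 rose by 0.31 on the log2 scale in NT naive H1 cells and fell by 0.27 in naive H9 cells, and DPPA4 fell by 0.11 in H1 and rose by 0.49 in H9. ZFP42 rose by 0.13 in H1 and fell by 0.28 in H9. The differences between the lines were 0.58 for SALL4, -0.59 for DPPA4 and 0.42 for ZFP42, all called, as were -0.83 for DPPA2 and -0.41 for SOX2. The H1 call of ZFP42 was lost, at a log2 value of -0.04, with GC content and length trends removed (adjusted p = 0.467), and was lost without NT primed replicate 1 (adjusted p = 0.103). The H1 call of DPPA4 was lost without NT primed replicate 2 (adjusted p = 0.0562) or NT naive replicate 3 (adjusted p = 0.223). In H9 the SALL4 call was lost without primed replicate 2 (adjusted p = 0.101), naive replicate 1 (adjusted p = 0.128) or naive replicate 2 (adjusted p = 0.0547), the PRDM14 call without naive replicate 1 (adjusted p = 0.0822) and the ZFP42 call without naive replicate 2 (adjusted p = 0.0649).

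Of the naive-state list, 14 of 15 genes tested rose and 1 fell in NT naive H1 cells, and 11 of 11 rose in naive H9 cells. NLRP7 rose by 5.77 on the log2 scale in H1 and by 6.0 in H9. Of 16 other pluripotency genes, 6 rose and 10 fell in H1, and 5 rose and 9 fell in H9. NODAL rose by 2.95 in H1 and by 5.61 in H9, and PODXL fell by 1.48 in H1 and by 1.56 in H9. Trophoblast and amnion genes summed to 99.0 to 106 CPM in NT naive H1 libraries and 7.23 to 12.2 CPM in NT primed H1 libraries, and to 9.0 to 13.5 CPM in naive H9 and 10.2 to 16.4 CPM in primed H9 libraries. Mesendoderm and endoderm genes summed to 130 to 151 CPM in NT naive H1 and 6.16 to 7.29 CPM in NT primed H1 libraries, with a log2 change of 5.27 for MIXL1 and 3.96 for TBXT. In H9 that list summed to 3.18 to 4.10 CPM in naive and 1.09 to 1.29 CPM in primed libraries. Fibroblast markers summed to 302 to 312 CPM in NT naive H1 and 684 to 712 CPM in NT primed H1 libraries, and to 180 to 204 CPM in naive H9 and 402 to 494 CPM in primed H9 libraries. Of those tested, 3 fell and 1 rose in each line. THY1, which is also on the primed-state list, fell by 9.59 on the log2 scale in H1 and by 2.38 in H9. The collagen gene COL1A2 rose by 0.97 in H1 and by 0.30 in H9. The part of these lists in the factors' changes was not tested. Line, count table and treatment label change together, and cannot be told apart in any difference between H1 and H9.

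**Figure D4:**
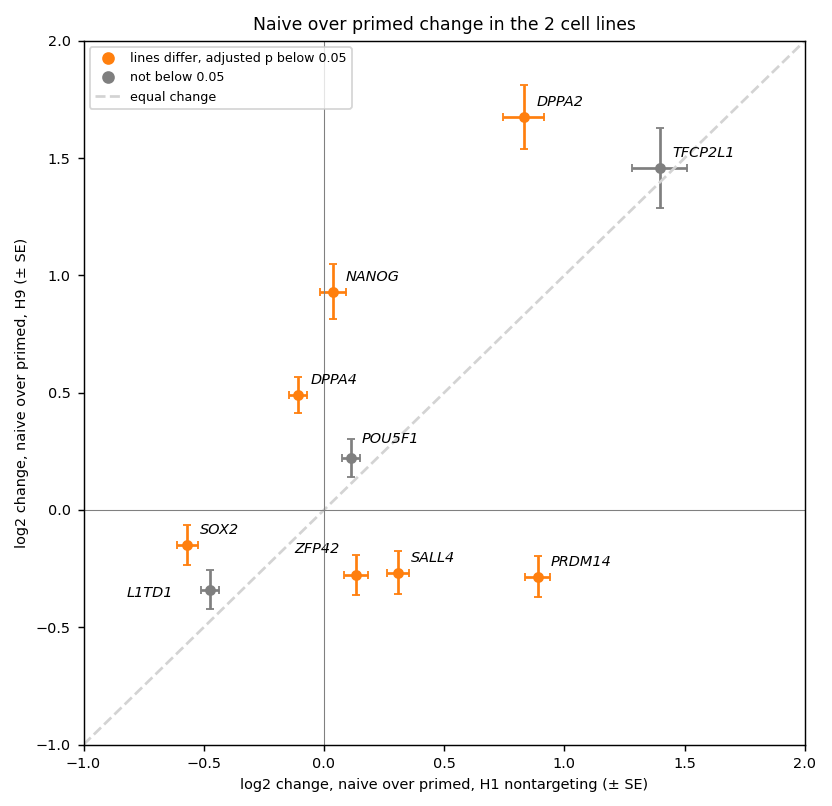
Log2 change of each factor, naive over primed, in NT H1 cells (horizontal axis) and in H9 cells (vertical axis), with SE bars and a dashed line of equal change. TFCP2L1, POU5F1 and L1TD1 (grey) did not pass the test of a difference between the lines; PRDM14, SALL4 and ZFP42 lie right of and below 0, and NANOG, DPPA2, DPPA4 and SOX2 lie above the dashed line.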

How the data were processed

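Gene-level read counts of 24 libraries were used as the authors deposited them, in one table for H1 and one for H9. Libraries came from the TruSeq Stranded mRNA kit, per the labels' protocols. HISAT2 and GRCh38 are named per the submitters' processing notes. The counting tool, strand setting and handling of multiply matching reads were not given in the sources used here. Levels per kilobase used the deposited length column, in bases, and 27 columns that match no sample were not used. Symbols and positions came from GENCODE 29.

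Changes were tested with edgeR 4.0.16 in R 4.3.3 (TMM scaling, filterByExpr, glmQLFit and glmQLFTest, Benjamini-Hochberg adjustment over all genes tested). Each pair of groups was fitted on its own 6 libraries, and each difference of changes in 1 fit of its 4 groups. The self-test on simulated counts was passed. DESeq2 1.42.0, RLE scaling, no filter, a replicate block and leaving out each library were tried as alternatives. Removal of GC content and length trends was tried for the 6 comparisons of a pair of groups only, and all H1 groups in 1 fit for those within H1 only. Adding the counts of the POU5F1 and NANOG copies was chosen after seeing the data. The SE of a log2 change was its size divided by the square root of the quasi-likelihood F. The 95% intervals are 1.96 SE either side. They are approximate, and narrower than intervals from the F test itself would be. All 10 members were described whatever their values, and their copies by their summed share and by those that passed the test. The genes most like POU5F1, NANOG and SOX2 were the 3 of highest Pearson r of log2(CPM + 1), and of each list up to 4 genes of smallest adjusted p were named per comparison. NODAL in ZNF8 knockdown, TCF19 and the genes of the marker check (KLF17, SIX3, PAX6, HES5, RAX) and the fibroblast markers at 0 were named after their values were seen. The members and lists were chosen with earlier results of these data known. Replicates of a group differed by more than sampling noise (chi-square per degree of freedom 2.44 to 9.16), so each library counted as 1 replicate.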

Additional observations from a re-analysis of the deposited data

Results flagged for a closer look

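For 7 of the 10 factors the naive over primed change differed between H1 and H9 cells by a direct test of the difference (edgeR, adjusted p below 0.05). As H1 change minus H9 change on the log2 scale, the difference was -0.89 for NANOG, -0.41 for SOX2, 0.58 for SALL4, 1.18 for PRDM14, -0.83 for DPPA2, -0.59 for DPPA4 and 0.42 for ZFP42. Among all 17140 genes tested, 49.9% differed in the same test. The lines were deposited in separate tables and only the H1 samples list doxycycline, so line, table and treatment label cannot be told apart.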

How the results depend on the processing

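Over 1450 alternative values of the 10 factors in the 10 comparisons, 1367 kept their direction and their side of the threshold, 34 lost the call, 6 gained it and 43 changed sign, of which 1 was a called change (ZFP42 in naive H1 cells, -0.037 with GC content and length trends removed). CARHSP1 knockdown called 2096 genes without knockdown replicate 2 and 2045 without NT primed replicate 1, against 3152 with all libraries (2045 to 3410 over all libraries left out). The causes were not tested. GC content and length trends were removed in the comparisons of a pair of groups only, not in the differences of changes. With them removed, values changed sign in CARHSP1 knockdown for NANOG (-0.022), L1TD1 (-0.025) and ZFP42 (-0.027), in ZNF8 knockdown for POU5F1 (0.019), in ZIC2 knockdown for SALL4 (0.019) and DPPA4 (0.033), in naive H1 cells for NANOG (-0.037) and in ectoderm for ZFP42 (-0.17). SALL4 in ZIC2 knockdown changed sign with RLE scaling (2.23e-05) and with no filter (0.0058), and ZFP42 in ectoderm with no filter (-0.011). ZFP42 in CARHSP1 minus ZNF8 knockdown changed sign with RLE scaling (0.0036) and DESeq2 (0.0037). Leaving out single libraries gave values on both sides of 0 for DPPA4 (-0.042 to 0.0087) and TFCP2L1 (-0.095 to 0.12) in CARHSP1 knockdown, for POU5F1 (-0.058 to 0.021) in ZNF8 knockdown, and for SALL4 (-0.026 to 0.038) and ZFP42 (-0.032 to 0.044) in ZIC2 knockdown. The same held for ZFP42 in ectoderm (-0.025 to 0.046), TFCP2L1 between the lines (-0.21 to 0.068), ZFP42 in CARHSP1 minus ZNF8 knockdown (-0.054 to 0.038), and DPPA4 (-0.0054 to 0.054) and DPPA2 (-0.065 to 0.30) in CARHSP1 minus ZIC2 knockdown. None of these changes was called in the fit reported. ZFP42 in ectoderm did pass the threshold with GC content and length trends removed (adjusted p = 0.0116 by edgeR). It is counted above among the changes of sign, not among the calls gained.

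Same-numbered replicates did not deviate together: the correlation of their deviations exceeded 0.1 for 1 pair of the H9 comparison (0.148, with -0.122 and -0.111 for the others) and for none elsewhere, although all 6 CARHSP1 comparison libraries correlated best with their own number. With a replicate block, CARHSP1 knockdown called 3404 genes, L1TD1 there passed the threshold (0.10, adjusted p = 0.0414 by edgeR) and ZFP42 in ectoderm was -0.0022. Other calls of the factors were the same under the replicate block. The call of POU5F1 in naive H1 cells was also lost with all H1 groups in 1 fit (adjusted p = 0.097), that of DPPA4 there with no filter (0.0715), and that of SALL4 in CARHSP1 minus ZIC2 knockdown with no filter (0.0512). Depth limits NANOG and TFCP2L1 in ectoderm, with 113 and 50 counts over the 3 NT libraries.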
